A study of Homo sapiens with 4 samples.

Results

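The nucleolar ribosome biogenesis genes examined here are 36 genes of ribosomal RNA transcription, processing and pre-ribosome assembly, followed over 4 arrays of MCF10A cells. Members were taken from probe sets annotated to exactly 1 gene symbol, and the probe set with the highest mean intensity over the 4 arrays stood for its gene. In this way 31 of the 36 genes could be followed, among 19775 genes of the whole table. All 31 had a mean intensity no lower than 113.6, which is the median probe set, and are called measured, as were 12759 genes in all. NOP56, DKC1, BOP1, DDX18 and GNL3 had no probe set with their symbol alone and were not analysed here.

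MCF10A is an immortal line of human breast epithelium that does not form tumours. The 4 cultures had been infected with retrovirus from the empty pQCXIH vector, from pQCXIH-YAP-WT, from pQCXIH-YAP-S94A or from pQCXIH-YAP-W1W2. YAP is the transcriptional coactivator that the Hippo pathway restrains; S94A impairs its binding to TEAD factors, and in W1W2 both WW domains are mutated. All 4 groups grew in medium with 5% horse serum, 20 ng/ml EGF, 0.5 μg/ml hydrocortisone, 10 μg/ml insulin and 100 ng/ml cholera toxin. Whether each culture was a pool or a clone, and how much YAP protein it made, is not given in the sources used here. Each group had a single array, so no difference below has a replicate check and no test was possible.

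Ribosomes are built in the nucleolus. RNA polymerase I transcribes the long pre-ribosomal RNA there, small nucleolar ribonucleoproteins (snoRNPs) guide its chemical modification, and assembly factors cut, fold and load it with ribosomal proteins to give the small (40S) and large (60S) subunits. Growing and dividing cells need many ribosomes, and the transcription factor MYC is known to raise many genes of this programme through the E-box sequence.

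The arrays were similar in level. Their 2% trimmed means differed by a ratio of 1.1, and the median measured gene lay above vector by 0.14 (log2) in YAP-WT and in YAP-S94A and by 0.10 in YAP-W1W2. Of the bacterial hybridization controls, bioB stood at log2 differences from vector of −0.39, −0.69 and −1.23 with YAP-WT, YAP-S94A and then YAP-W1W2, and cre at 0.02, −0.01 and −0.16. The actin controls stood at 0.41, 0.73 and 0.85. The 3′ to 5′ log2 ratio of actin ran from −0.05 to 0.21. The 3 probe sets of YAP1 lay between −0.24 and 0.60 of vector on the YAP arrays; whether they see the constructs is not known. All 10 measured mammary epithelial markers lay above 72.9, the floor set under low intensities, on every array. Of 8 fibroblast markers 5 or 6 lay above it, and of 5 immune and 5 endothelial markers at most 3 and 2. The summed fibroblast marker intensity was 10362.2 with vector, 5340.4 with YAP-WT, 1434.8 with YAP-S94A and then 1827.3 with YAP-W1W2. Most of it was decorin (DCN) in vector, whose intensity was 9343.9, while PDGFRA, PDGFRB, LUM and COL3A1 had mean intensities too low to count as measured. The part of these differences in the results below was not tested. In bulk RNA, a difference in RNA per cell cannot be told apart from a difference in the cells present.

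The members were highest with YAP-S94A. Of the 31 measured members, 30 had their highest intensity on the YAP-S94A array, where 30.5% of all measured genes had theirs. The exception was NHP2, which barely moved. None was lowest on the YAP-S94A array (17.8% of measured genes). The vector array was lowest for 22 members (38.7% of measured genes), the YAP-WT array for 7 (16.4%) and the YAP-W1W2 array for 2 (26.1%). In 13 members, 41.9%, the full order ran YAP-S94A, YAP-W1W2, YAP-WT, vector from high to low, against 9.89% of measured genes. The span from lowest to highest array was narrow, from 1.04-fold in NHP2 to 2.88-fold in BYSL, with a median of 1.80-fold.

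**Figure D1:**
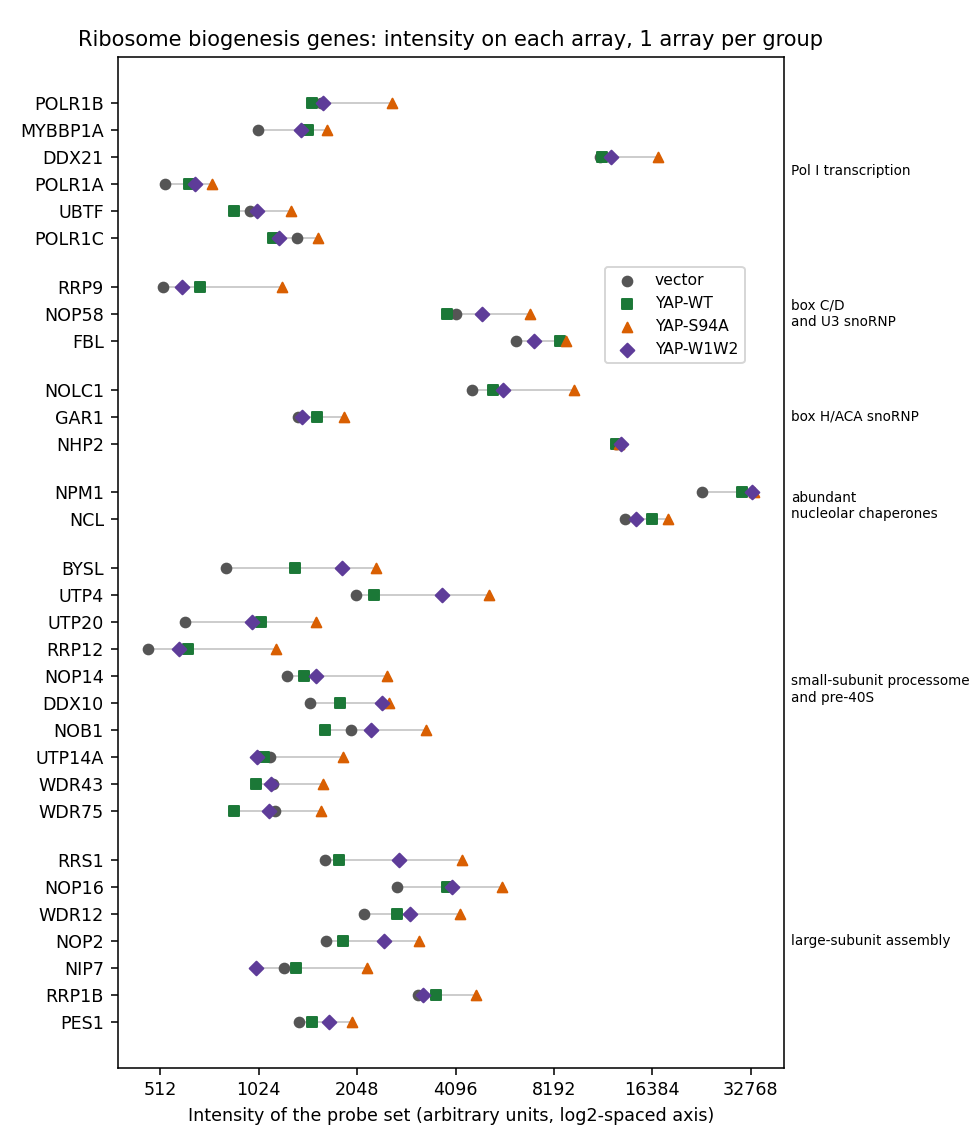
Intensity of the probe set that stands for each of the 31 members (x axis, arbitrary units, log2-spaced) on each of the 4 arrays; points are single arrays, the grey line joins the lowest and the highest, and genes are grouped by role. The YAP-S94A point (orange triangle) is the rightmost for 30 of 31 genes, while the vector and YAP-WT points often lie close together.

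The members held the E-box named above, the 6-base palindrome CACGTG, often and near their annotated starts. RefSeq promoter windows (GRCh38.p14, 250 bases before to 50 after the start) were found for 26 of the 31 measured members, and 13 of those (50.0%) held CACGTG. The share was 28.7% of 80 other ribosome assembly genes, 12.4% of 10368 measured genes and 8.77% of all 27305 genes with a window. CACGTG reads the same on both strands, so 1 search covered both. Other letters were searched on both strands: TTCCGG stood in 42.3% of the members' windows and 33.0% of those of measured genes, CACGCG in 38.5% and 21.6%, CATGTG in 7.69% and 10.2%, and a longer palindrome rich in CG in 1 member (3.85%) and 0.907%. In 12 members CACGTG began within 40 bases of the start, a distance chosen after the positions were seen. The same held for 21.2% of the 80 other ribosome assembly genes and 4.25% of measured genes. The windows below, 30 bases each with CACGTG in capitals, are shown because these letters are shared by members whose intensities are compared below. Positions count from the annotated start as base 1, with negative numbers upstream.
BYSL, chr6:41921515-41921544, plus strand, motif at 29: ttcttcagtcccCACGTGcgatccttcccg
UTP4, chr16:69132621-69132650, plus strand, motif at -16: agagcgcgcgcgCACGTGgggccggggcgg
UTP20, chr12:101280083-101280112, plus strand, motif at -10: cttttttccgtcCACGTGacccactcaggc
RRP9, chr3:51941892-51941921, minus strand, motif at -5: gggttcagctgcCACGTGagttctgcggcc
NOP14, chr4:2963374-2963403, minus strand, motif at 16: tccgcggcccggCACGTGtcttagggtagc
DDX21, chr10:68956604-68956633, plus strand, motif at -31: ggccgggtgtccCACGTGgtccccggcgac
FBL, chr19:39846356-39846385, minus strand, motif at 7: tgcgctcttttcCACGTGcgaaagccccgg
WDR43, chr2:28894658-28894687, plus strand, motif at 4: cgcacggacgaaCACGTGgctgcagcgggg
The flanking letters differ from gene to gene, and the shared letters are those of the hexamer. GAR1, MYBBP1A, NOP2, PES1 and UTP14A held it too, in UTP14A at -241 and so far from the start. NOP58, NOLC1, RRP12, RRP1B and RRS1 had no window in the table. A match is a description of these letters and shows no binding.

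**Figure D2:**
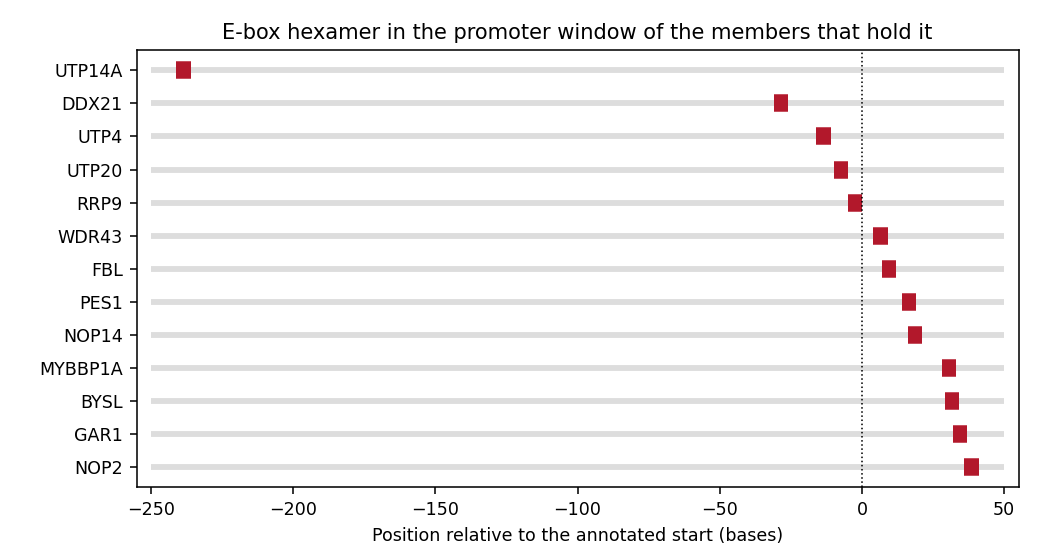
Position of the E-box hexamer (red) in the promoter windows (grey, 250 bases before to 50 after the annotated start, dotted line) of the 13 members that hold it; the x axis is distance from the start in bases. In 12 of the 13 the hexamer lies within 40 bases of the start, and in UTP14A it lies at -241.

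The small-subunit genes held 5 of the 9 members that were at least 2-fold above vector with YAP-S94A, where 10.3% of measured genes were. They encode parts of the small-subunit (SSU) processome, which folds and cuts the 5′ part of the pre-ribosomal RNA, and factors of later pre-40S particles. With YAP-S94A, 8 of 10 were at least 1.5-fold above vector (23.6% of measured genes), with a median log2 difference of 0.91. BYSL encodes bystin, a pre-40S assembly factor, and its intensity was 813.2 with vector, 1320.8 with YAP-WT, 2338.0 with YAP-S94A and then 1837.6 with YAP-W1W2. It was thus 2.88-fold above vector in YAP-S94A and was above vector on all 3 YAP arrays, and no other member was 2-fold above vector with YAP-W1W2.

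UTP4, an early-binding subunit of the processome, read 2034.4 with vector, 2299.9 with YAP-WT, 5183.5 with YAP-S94A and then 3714.6 with YAP-W1W2. UTP20, a large scaffold protein of the processome, read 611.1, 1044.8, 1537.3 and 975.8 in the same order. RRP12, which acts in pre-40S maturation and export, read 469.6, 624.0, 1155.9 and 583.7. By these probe sets the genes were 2.55-fold, 2.52-fold and 2.46-fold above vector in YAP-S94A. They parted on the other arrays: UTP4 was closer to vector in YAP-WT than in YAP-W1W2, whereas UTP20 and RRP12 had similar values on those 2 arrays. Another RRP12 probe set was 0.75 (log2) above vector in YAP-S94A, but 0.34 below it in YAP-WT and 0.11 below in YAP-W1W2. A dimmer RRP12 probe set was 0.08 above vector in YAP-S94A.

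NOP14, a processome scaffold protein, had intensities of 1247.0, 1409.0, 2531.1 and 1534.8 with vector, YAP-WT, YAP-S94A and then YAP-W1W2. NOB1, the nuclease that makes the final cut of the small-subunit RNA, had 1955.7, 1628.7, 3324.5 and 2254.9. The helicase gene DDX10 had 1469.3, 1814.7, 2564.5 and 2435.0. NOB1 was lower in YAP-WT than in vector, and DDX10 was nearly as high in YAP-W1W2 as in YAP-S94A. By the probe sets that stand for them, the remaining processome genes, UTP14A, WDR43 and WDR75, were lower than vector with YAP-WT and YAP-W1W2. They were lower by at most 0.41 (log2), and higher with YAP-S94A, by 0.74, 0.50 and 0.47. A dim UTP14A probe set, of mean intensity 126.8, lay above vector by 0.41 for YAP-WT, 0.96 for YAP-S94A and 0.82 for YAP-W1W2. The UTP14A direction with YAP-WT and YAP-W1W2 thus depended on the probe set.

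Of 7 measured genes of large-subunit assembly, 6 were at least 1.5-fold above vector in YAP-S94A (23.6% of measured genes) and 2 at least 2-fold (10.3%), with a median log2 difference of 0.94. RRS1, which brings the 5S ribonucleoprotein into the pre-60S particle, read 1632.2 with vector, 1799.8 with YAP-WT, 4286.8 with YAP-S94A and then 2760.3 with YAP-W1W2. NOP16, a nucleolar 60S assembly factor, read 2709.2, 3853.5, 5696.7 and 4008.0. NOP2, an RNA methyltransferase of the large-subunit RNA, read 1643.9, 1854.0, 3163.5 and 2470.7. By these probe sets all of them were highest with YAP-S94A and lowest with vector. RRS1 had the largest difference between YAP-S94A and YAP-WT of any member, 1.25 (log2). For NOP16 another bright probe set was lowest with YAP-WT, at 1749.2 against 2304.3 with vector. It was 0.67 (log2) above vector in YAP-S94A. A dim NOP16 probe set, of mean intensity 123.2, was highest with YAP-WT.

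WDR12 and PES1 encode partners in 1 complex, the PeBoW complex with BOP1, which is needed to mature the large-subunit RNA. WDR12 read 2154.4, 2714.0, 4232.1 and 2966.0 with vector, YAP-WT, YAP-S94A and then YAP-W1W2, and PES1 read 1363.5, 1490.3, 1970.9 and 1681.4. WDR12 was therefore 0.97 (log2) above vector in YAP-S94A and PES1 0.53, in the same order of arrays. NIP7, a pre-60S factor, read 1223.4, 1331.0, 2191.9 and 1006.2, and so was below vector in YAP-W1W2 by this probe set. Its other probe set was 0.37 (log2) above vector there, so the direction depended on the probe set. RRP1B, at 0.59 above vector in YAP-S94A, lay just past the 1.5-fold line, as did DDX21, by the probe sets that stand for them. Their other probe sets lay further above vector there, at 1.57 for RRP1B and 0.91 for DDX21.

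In the RNA polymerase I group, 3 of 6 members were at least 1.5-fold above vector with YAP-S94A (23.6% of measured genes) and none 2-fold (10.3%). Of 13 other measured genes of polymerase I transcription, 6 were at least 1.5-fold and 4 at least 2-fold above vector there, with a median of 0.57 (log2). POLR1B, the second-largest catalytic subunit, read 1584.7 with vector, 1487.8 with YAP-WT, 2619.3 with YAP-S94A and then 1612.3 with YAP-W1W2. By this probe set the 3 arrays other than YAP-S94A lay within 0.12 (log2). Its other 3 probe sets were above vector in YAP-S94A too, by 0.32 to 0.44, but 1 of them was highest with YAP-WT, at 635.8 against 594.1 with YAP-S94A. POLR1A, the largest subunit, read 529.6, 628.9, 736.8 and 653.3, and 1 of its other probe sets was lower than vector on all 3 YAP arrays. UBTF, the factor that binds ribosomal DNA and keeps it active, read 964.2, 859.0, 1286.9 and 1011.0. Its other probe sets bright enough to count lay above vector in YAP-WT, by 0.57, 0.31 and 0.27 (log2). The last of these was highest with YAP-WT, at 344.0 against 315.6 with YAP-S94A. POLR1C, a subunit shared with RNA polymerase III, was 0.22 (log2) above vector in YAP-S94A by 1 probe set and 0.71 by the other. DDX21, a helicase of polymerase I transcription and snoRNA function, read 11290.8, 11518.0, 17013.0 and 12235.3. MYBBP1A, a nucleolar MYB-binding protein, was above vector by 0.51 for YAP-WT, 0.71 for YAP-S94A and 0.44 with YAP-W1W2. Its other probe set was 0.46 (log2) below vector with YAP-WT, and above it by 0.89 with YAP-S94A and 0.55 with YAP-W1W2. The direction in YAP-WT thus depended on the probe set.

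The snoRNP genes differed widely among themselves. RRP9, a protein of the U3 snoRNP that works in the processome, read 524.1 with vector, 677.7 with YAP-WT, 1207.7 with YAP-S94A and then 597.7 with YAP-W1W2, which is 2.30-fold above vector in YAP-S94A. NOP58, a core protein of the box C/D snoRNPs that guide RNA 2′-O-methylation, read 4123.4, 3844.5, 6906.8 and 4951.1. FBL encodes fibrillarin, the methyltransferase of the same particles, and read 6255.4, 8578.1, 8947.6 and 7116.4. FBL was nearly as high with YAP-WT as with YAP-S94A, whereas NOP58 was slightly below vector with YAP-WT, although the 2 proteins share a particle.

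Among the box H/ACA genes, whose particles guide pseudouridylation, NOLC1, a snoRNP chaperone, read 4607.2, 5328.9, 9428.8 and 5712.8 with vector, YAP-WT, YAP-S94A and then YAP-W1W2. GAR1 read 1356.0, 1548.6, 1867.8 and 1393.6, and NHP2 read 12700.3, 12721.5, 12906.8 and 13155.0. NOLC1 was 2.05-fold above vector in YAP-S94A, and all 3 of its probe sets were above vector there, by 0.66 to 1.38 (log2). NHP2 and GAR1, core proteins of the same particle, differed by 0.02 and 0.46.

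The abundant nucleolar chaperones were above vector on all 3 YAP arrays by the probe sets that stand for them. NCL, nucleolin, read 13522.8, 16363.8, 18346.7 and 14572.4 with vector, YAP-WT, YAP-S94A and then YAP-W1W2, and NPM1, nucleophosmin, read 23189.3, 30894.7, 33436.4 and 33078.9. NPM1 was about equally high on the 3 YAP arrays by this probe set, while its other 2 probe sets were highest in YAP-S94A, at 0.80 and 0.72 (log2) above vector.

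**Figure D3:**
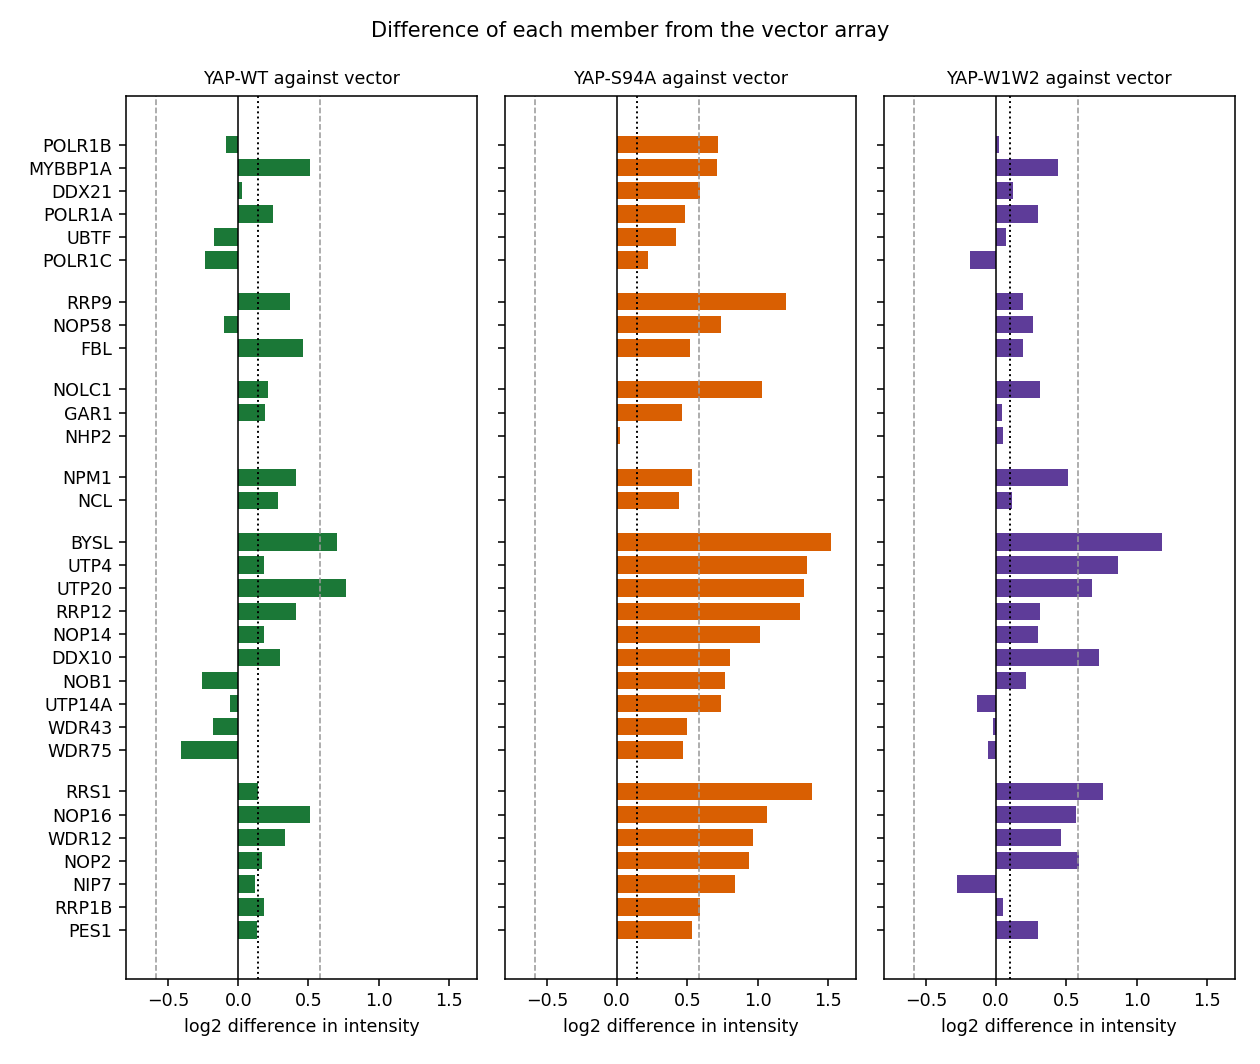
Log2 difference of each member from the vector array (x axis) for each of the 3 YAP forms; bars are single differences between 2 arrays, dashed lines mark 1.5-fold, and the dotted line is the median measured gene. All 31 bars lie above 0 for YAP-S94A, 23 for YAP-WT and 26 for YAP-W1W2.

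The comparison of YAP-WT with vector asks whether added YAP goes with a change of this programme. The members hardly differed. Above vector were 23 of 31, as were 59.9% of measured genes. Of 31 members 2 were at least 1.5-fold higher, UTP20 and BYSL, against 20.9% of measured genes, and none was 1.5-fold lower, against 11.3%. No member was 2-fold higher (9.11% of measured genes) or 2-fold lower (4.95%). The median member lay 0.18 (log2) above vector, or 0.04 above the median gene. WDR75 was the lowest member at −0.41 and UTP20 the highest at 0.77. Between probe sets of the same gene the standard deviation of this difference was 0.513 (log2), so the direction of a single gene here is uncertain.

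YAP-S94A, the form impaired in TEAD binding, was compared with vector in the same way. All 31 members were above vector, as were 59.3% of measured genes. At least 1.5-fold higher were 20 members, 23.6% of measured genes, and at least 2-fold higher were 9, 10.3% of measured genes. The 9 were BYSL, RRS1, UTP4, UTP20, RRP12, RRP9, NOP16, NOLC1 and NOP14, by the probe sets that stand for them. Some other probe sets of NOP16, RRP12 and NOLC1 fell short of 2-fold, among them ones at 0.67, 0.75 and 0.66 (log2). None was 1.5-fold lower (14.4% of measured genes). The median was 0.74 (log2), or 0.59 above the median gene. Probe sets not used above gave the same picture in part: 22 of 25 with a mean intensity of at least 113.6 were above vector, and 19 of 25 were highest on the YAP-S94A array. The 3 that were lower belong to POLR1A and WDR12. Between probe sets of the same gene the standard deviation of this difference was 0.42 (log2, 15 genes, 40 probe sets), so a single gene near 1.5-fold is within the disagreement of its probe sets.

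YAP-W1W2 was compared with vector last. There 26 of 31 members were above vector (56.1% of measured genes), with a median of 0.26 (log2), or 0.16 above the median gene. At least 1.5-fold higher were 6, BYSL, UTP4, RRS1, DDX10, UTP20 and NOP2 (24.0% of measured genes), and 1 was at least 2-fold higher (11.4%). None was 1.5-fold lower (17.3%). NOP2 lay at 0.59, just past the line. The other UTP4 probe set lay at 0.57, just under it. The comparisons with vector share 1 array, so their values stand side by side and are not independent.

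YAP-S94A was set directly against YAP-WT, which leaves the vector array out. All 31 members were higher with YAP-S94A, where 51.1% of measured genes were. The difference reached 1.5-fold in 16 (13.9% of measured genes) and 2-fold in 3, RRS1, UTP4 and NOB1 (5.06%), and no member was 1.5-fold lower (15.1%). The other UTP4 probe set was 0.96 (log2) higher, just under 2-fold. The members' median was 0.64 (log2). By role it was 0.83 for the small-subunit and the box C/D genes, 0.64 for the large-subunit genes and 0.51 for the polymerase I genes. It was only 0.27 for the box H/ACA genes and 0.14 for the abundant nucleolar chaperones. By the probe sets that stand for them, FBL, NHP2 and NPM1 differed by 0.06, 0.02 and 0.11, the smallest differences. Other bright NPM1 probe sets were higher with YAP-S94A by 0.62 and 0.43, so the small NPM1 difference depended on the probe set.

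YAP-W1W2 lay closer to YAP-WT than to YAP-S94A. Against YAP-WT, 21 of 31 members were higher (46.2% of measured genes), with a median of 0.10 (log2), and 29 of 31 differed by less than 0.5. Such small differences were common: over all measured genes the lower and upper quartiles were −0.38 and 0.29. At least 1.5-fold higher were 2 members, UTP4 and RRS1 (11.1% of measured genes), and none was lower by that much (15.2%). The other UTP4 probe set, nearly as bright, was only 0.24 (log2) higher. Against YAP-S94A, 30 of 31 were lower (56.9% of measured genes), with a median of −0.48. Here 9 were at least 1.5-fold lower (13.2% of measured genes) and 2, RRP9 and NIP7, at least 2-fold (4.45%), while none was 1.5-fold higher (11.9%). The other NIP7 probe set stood at only −0.27 (log2), so its 2-fold difference depended on the probe set. DDX10 and NPM1 were nearly level between the mutants by the probe sets that stand for them, at −0.07 and −0.02. Other NPM1 probe sets stood at −0.31 and −0.29.

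**Figure D4:**
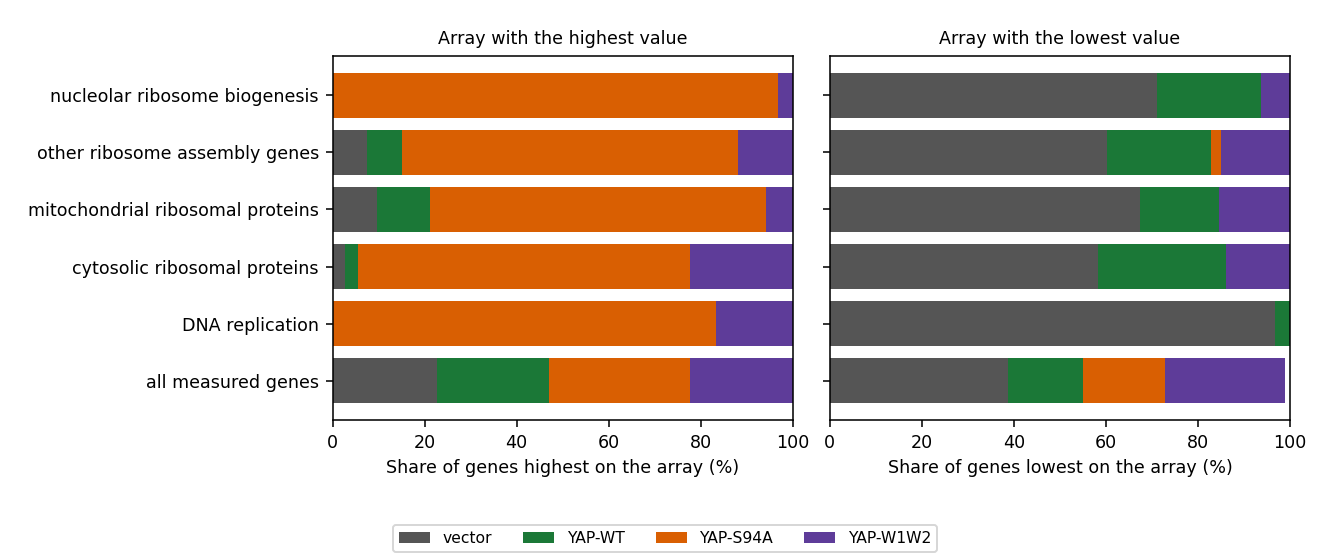
Share of genes (x axis, percent) whose highest (left) or lowest (right) value fell on each of the 4 arrays, for the members, for 4 comparison lists and for all measured genes; ties at the floor are left out of the bars. The YAP-S94A array held the highest value for 96.8% of the members and 30.5% of all measured genes.

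Other genes of ribosome assembly, from a list of 98, showed the pattern more weakly. Of 93 measured, 68 (73.1%) were highest on the YAP-S94A array, against 30.5% of measured genes. On the vector array 56 (60.2%) were lowest, against 38.7%. With YAP-S94A 54 were at least 1.5-fold above vector and 1 lower (23.6% and 14.4% of measured genes), with a median of 0.62 (log2). With YAP-WT 10 of the 93 were higher and 3 lower (20.9% and 11.3% of measured genes, list median 0.19). With YAP-W1W2 29 of the 93 were higher and 4 lower (24.0% and 17.3% of measured genes, list median 0.35). TCOF1, the treacle protein of polymerase I transcription, read 686.7 with vector, 825.7 with YAP-WT, 1961.7 with YAP-S94A and then 1445.5 with YAP-W1W2. RRP7A, a small-subunit factor, read 428.7, 931.6, 1506.3 and 1375.4. Some went the other way: the helicase gene DDX52 was 0.65, 0.78 and 1.34 (log2) lower than vector on the 3 YAP arrays, and TAF1C of the polymerase I promoter factor was 0.90 lower in YAP-W1W2.

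Related lists placed the members between genes that moved more and genes that moved less. In YAP-S94A against vector the median was 1.90 (log2) for 30 DNA replication genes, 0.81 for 15 nucleotide synthesis genes, 0.49 for 52 mitochondrial ribosomal protein genes, 0.26 for 18 polymerase III genes and 0.20 for 36 cytosolic ribosomal protein genes. In YAP-WT against vector the replication genes were already high, with a median of 1.41 and 28 of 30 at least 1.5-fold higher (20.9% of measured genes). The members had a median of 0.18 there. For YAP-W1W2 the replication median was 1.77. The replication median was thus past 2-fold on every YAP array. The members' median was past 1.5-fold on none but the YAP-S94A array, and there it was 0.58 (log2), just under that line, with quantile normalization. A step from YAP-WT to YAP-S94A was not particular to the members, with a median of 0.64 for them and 0.51 for the replication genes. Highest on the YAP-S94A array were 83.3% of replication, 73.3% of nucleotide synthesis and 73.1% of mitochondrial ribosomal protein genes, against 30.5% of measured genes. Cytosolic ribosomal protein genes were highest on the YAP-S94A array in 26 of 36 cases (30.5% of measured genes). The amounts were small, with none at least 1.5-fold above vector there (23.6%). Many of these genes were brighter than 10000. The 4 members above that intensity, DDX21, NHP2, NCL and NPM1, had a median of 0.48 (log2) in YAP-S94A against vector. For the other 27 members it was 0.77. Whether differences are narrower at high intensity was not tested.

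**Figure D5:**
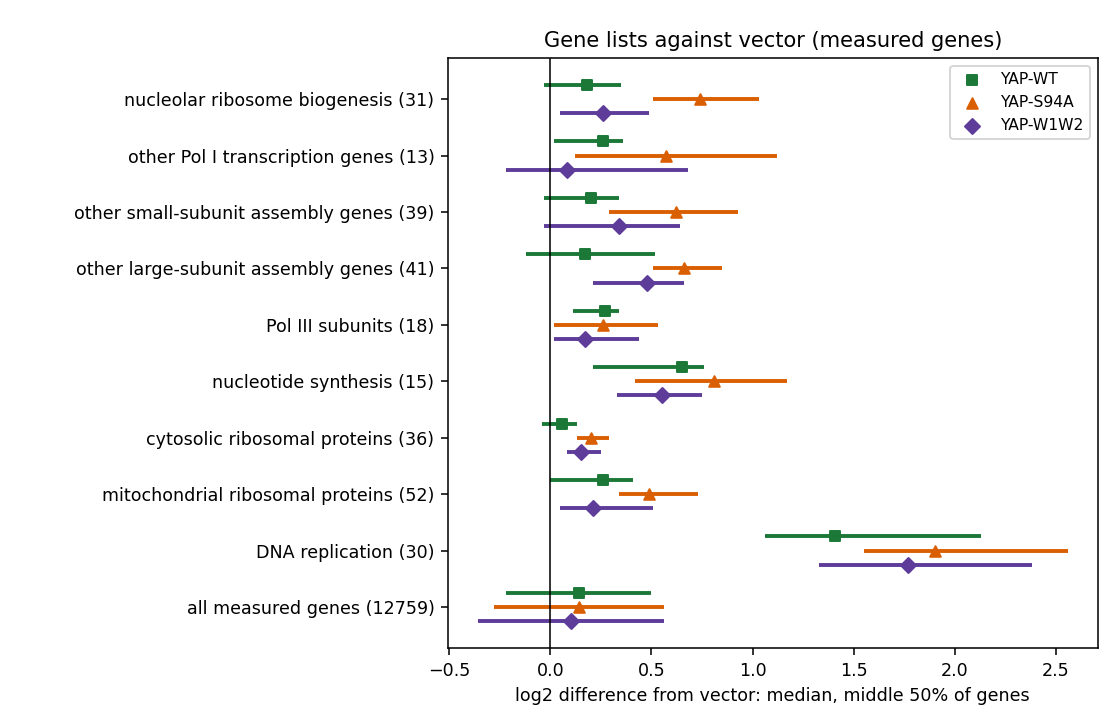
Median log2 difference from vector (points, x axis) and middle 50% of genes (lines) for the members, related gene lists and all measured genes on the 3 YAP arrays, with the number of measured genes in brackets. For the members the YAP-S94A median of 0.74 lies apart from 0.18 for YAP-WT and 0.26 for YAP-W1W2, while DNA replication genes lie above 1.40 for all 3.

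The MYC network, which acts on the E-box shown above, was read from the same arrays. MYC itself, by its 1 probe set, read 4846.4 with vector, 6409.7 with YAP-WT, 10186.2 with YAP-S94A and then 4993.5 with YAP-W1W2. It was 2.10-fold above vector with YAP-S94A and level with vector with YAP-W1W2. The antagonists MNT and MXI1 were lower than vector on all 3 YAP arrays, MNT by 0.79, 0.60 and 1.42 (log2) and MXI1 by 0.46, 0.93 and 0.96. MXD1, another antagonist, was 1.01 and 1.29 lower in YAP-WT and YAP-W1W2 and 0.34 above vector in YAP-S94A. MGA was at least 4.08-fold lower in YAP-W1W2, where it lay below the floor. MAX, the shared partner, stayed within 0.26 of vector, and MLX stood at −0.02, 0.51 and 0.43. MLXIP stood at 0.09, 0.03 and −0.45 and MYCN, which was below the floor in YAP-WT, at 0.45 in YAP-S94A and −0.11 in YAP-W1W2. MYCL and MXD3 were too dim to count as measured, and MXD4 had no probe set of its own. Members with CACGTG in the window had a median difference of 0.74 between YAP-S94A and vector, from 0.46 to 1.52 over 13 genes. The 13 whose window lacked it had a median of 0.53, from 0.02 to 1.07, and the ranges overlap. NHP2, NCL and NPM1, which are among the brightest members, lacked it, while the bright DDX21 held it. Whether MYC or the E-box has a part in the members' values was not tested.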

How the data were processed

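RNA of 1 MCF10A culture per group was labelled with biotin and read on Affymetrix arrays, per the labels' protocols. The values are linear array intensities as deposited, 1 per probe set, and GCOS is named, without a version, in the submitters' processing notes. Its scaling target and any genome build are not given in the sources used. No detection calls were used. Of 54675 probe sets, 62 controls were kept apart; of the rest 41091 had 1 gene symbol, 1801 several and 11721 none in the platform annotation.

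Trimmed means lay within the 10% allowed, so intensities were used unscaled. Values under 72.9, the 40th percentile, were raised to that floor before log2, so a fold against such a value is a lower bound. Genes were counted at 1.5-fold and 2-fold. With 1 array per group no test, error or p-value was computed, and the number of arrays limits the precision. Python 3.11.15, numpy 2.4.6 and pandas 2.3.3 were used, and the counting was tested on simulated data. All members could be named, as could the MYC network and up to 3 highest and 3 lowest genes of each other list in each comparison with vector. Members and lists were chosen with earlier results of these data known. E-box searches were added after the values were seen. Alternatives covered the floor, the scaling, the choice of probe set and the filter on dim genes.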

Additional observations from a re-analysis of the deposited data

How the results depend on the processing

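Over 9 alternatives and 32 results, 275 of 288 values kept their direction and stayed close to the main value, and none reversed. Close meant a count within 1.5 times or a median within the standard deviation between probe sets of a gene. That standard deviation ran from 0.295 to 0.513 (log2), wider than the smaller medians, so those could hardly be called moved. In YAP-WT against vector the members' median went from 0.18 to 0.01 with median centring and with quantile normalization. Many counts were 0 and stayed 0. The count highest on the YAP-S94A array, a result added after seeing the data, ran from 25 to 30, with 25 members left when _s_at and _x_at probe sets were dropped. Members at least 1.5-fold above vector in YAP-S94A ran from 14 with quantile normalization to 20, and at least 2-fold from 6 to 9. The members' median there ran from 0.58 to 0.74 (log2). The count lowest on the vector array ran from 15 to 22.

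The 13 values that moved were small counts. In YAP-WT against vector, 1 member in place of 2 was at least 1.5-fold higher with median centring, with a trimmed mean of 500 and with quantile normalization. Without _s_at and _x_at probe sets 1 was at least 1.5-fold lower and 1 at least 2-fold lower, in place of 0. In YAP-W1W2 against YAP-WT, 4 in place of 2 were at least 1.5-fold higher with median centring and 1 with the mean over probe sets, and 1 in place of 0 was at least 2-fold higher without _s_at and _x_at probe sets. In YAP-W1W2 against YAP-S94A, 1 in place of 2 was at least 2-fold lower with median centring, a trimmed mean of 500, quantile normalization, the mean over probe sets and without _s_at and _x_at probe sets. That last setting leaves 25 members; the cause of the others was not tested. No paired analysis was possible because each group has 1 array. Signal over background limits the dim genes, and no member was near the floor. A limit at high intensity was not tested.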
